A study of Homo sapiens with 90 samples.

Results

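DKK1 and 9 further target genes of the Wnt/beta-catenin pathway, AXIN2, LGR5, NKD1, TCF7, LEF1, SP5, RNF43, ZNRF3 and NOTUM, were followed in HepG2 cells exposed to 3 agricultural compounds. HepG2 is an established human liver tumour line, known to carry an activating deletion in CTNNB1, the gene of beta-catenin. The cells received imazalil, fenbuconazole or 2,4-D for 24 h at 9 doses in steps of about 3-fold, the lowest 0.001 µM and the highest 10 µM, with 3 arrays per dose, and the 3 arrays of cells given the vehicle alone served as controls for all compounds. Every group, controls included, contained 0.2% DMSO. Imazalil, an imidazole, and fenbuconazole, a triazole, are azole fungicides, and 2,4-D (2,4-dichlorophenoxyacetic acid) is a herbicide. The genes were taken by name, and all of their probe sets with a single gene symbol were kept, which gave 16 probe sets for 9 of the 10 genes, out of 40914 such probe sets for 19774 genes. TCF7 was not analysed here. The list was chosen by the measured log2 values at 10 µM imazalil against DMSO, in which DKK1 stood out, so the contrasts of DKK1 with DMSO, and the values of members that use the 10 µM imazalil arrays, are given as descriptions without a test. All values are log2 intensities normalized separately for each compound, and differences of 1 on this scale are 2-fold. The labels do not state whether the 3 arrays of a dose came from separate cultures, so the p-values measure only the spread between these arrays, and the number of arrays limits the precision.

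Wnt ligands bind Frizzled and LRP receptors and thereby stop the destruction complex from degrading beta-catenin, which then enters the nucleus and switches on genes together with TCF and LEF factors. Many of these target genes feed back on the pathway. DKK1 is secreted and blocks the LRP co-receptors, NOTUM is a secreted enzyme that inactivates Wnt ligands, AXIN2 is a scaffold of the destruction complex, NKD1 binds Dishevelled, and RNF43 and ZNRF3 are membrane ubiquitin ligases that remove Frizzled from the cell surface. LGR5 is a receptor for R-spondins, which protect Frizzled from those ligases, while LEF1, TCF7 and SP5 are transcription factors. In liver the pathway is known for the zonation of hepatocytes, and CTNNB1 is often mutated in liver tumours.

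The promoter of DKK1, on which most of the results turn, is shown with that of SP5, the other member whose promoter held the TCF/LEF core. The core searched was CTTTGA on either strand (TCAAAG on the printed strand when it lies on the other), in the 250 bases before the annotated start, and the capitals mark it. Sequences are those of RefSeq on GRCh38.p14, plus strand, for chr10:52314031-52314280 and chr2:170715087-170715336.
DKK1: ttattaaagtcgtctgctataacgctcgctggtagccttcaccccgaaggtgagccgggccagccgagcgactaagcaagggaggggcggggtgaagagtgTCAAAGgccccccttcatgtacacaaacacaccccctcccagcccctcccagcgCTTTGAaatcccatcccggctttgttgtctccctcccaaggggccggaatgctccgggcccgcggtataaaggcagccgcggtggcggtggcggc
SP5: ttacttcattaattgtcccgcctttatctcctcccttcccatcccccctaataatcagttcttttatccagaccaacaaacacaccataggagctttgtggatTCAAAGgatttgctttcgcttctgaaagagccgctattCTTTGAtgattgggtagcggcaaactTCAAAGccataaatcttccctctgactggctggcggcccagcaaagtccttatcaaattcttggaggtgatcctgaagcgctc
The DKK1 window held 2 cores, which begin 149 and 95 bases before the start, and the SP5 window held 3, at 147, 109 and 83 bases. Promoter windows were at hand for 4 of the 9 measured genes, and those of LEF1 and RNF43 (both of its windows) held 0 cores on either strand. The LEF1 window (chr4:108166302-108166551) and the RNF43 window at chr17:58402722-58402971 lie within the annotated genes, not before their outermost starts. Of 35116 promoter windows of the same length, 11.2% held 1 or more cores, 0.98% held 2 or more and 0.07% held 3 or more. The matches are a description of the letters and not of bound sites.

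The hepatic origin given in the labels was checked against marker genes. All 9 measured hepatocyte markers of a list of 10 lay above the median of all probe sets, and their mean per array was 12.2 to 12.3 in the 10 µM groups and in DMSO. Of 10 markers of mesenchymal, endothelial and blood cells, 3 lay above that median, and their mean per array was 2.89 to 3.08 in the 10 µM groups and 2.94 to 3.18 in DMSO. The spread of the values within an array, as the interquartile range, was 3.04 to 3.08 at 10 µM imazalil and 2.94 to 3.10 in DMSO. With that range as a covariate the log2 change of DKK1 at 10 µM was -0.50 with imazalil and -0.31 with fenbuconazole, against -0.51 and -0.31 without it. Of the 16 member probe sets, 13 lay above the median of all probe sets, and the 3 of LEF1 lay below it.

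DKK1 (204602_PM_at, gene at chr10:52314281-52317657 of GRCh38.p14, plus strand) had its lowest values at the highest doses of both azoles, and no such difference was detected with 2,4-D. With imazalil the 3 arrays of each dose, in increasing order of dose, were 10.16, 10.21 and 10.05 in DMSO, 10.07, 10.14 and 10.09 at 0.001 µM, 10.08, 10.07 and 10.09 at 0.003 µM, and 10.13, 10.08 and 10.06 at 0.01 µM. They were 10.07, 10.18 and 10.08 at 0.03 µM, 10.13, 10.22 and 10.04 at 0.1 µM, 10.06, 10.14 and 10.14 at 0.3 µM, and 10.07, 10.16 and 10.11 at 1 µM. At 3 µM they were 9.92, 9.99 and 9.94, and at 10 µM 9.59, 9.69 and 9.61. The 3 arrays at 10 µM thus lay below all 27 others of the set, and the 3 at 3 µM below all 24 at lower doses or in DMSO. The groups from DMSO to 1 µM had means between 10.08 and 10.14 and overlapped each other. In these bulk extracts, less DKK1 RNA per cell and fewer cells that express it cannot be told apart.

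With 10 µM imazalil DKK1 averaged 9.63 ± 0.05, against 10.14 ± 0.08 in DMSO (SD, n = 3 each), a log2 change of -0.51 ± 0.07 (SE) or 0.703 of the DMSO level (95% interval 0.64 to 0.773), given as a description. At 3 µM it averaged 9.95 ± 0.03 (SD, n = 3), 0.877 of the DMSO level. The 3 µM arrays were then compared with the 9 arrays at 0.001, 0.003 and 0.01 µM, which were used neither in choosing the gene nor as vehicle. DKK1 was lower at 3 µM by a log2 difference of -0.14 ± 0.05 (SE, 95% interval -0.254 to -0.0325, 0.905-fold), in 3 of 3 arrays. In limma over all probe sets this did not pass (adjusted p = 0.914). An exact permutation test of DKK1 alone, two-sided, used the 220 ways of choosing 3 of the 12 arrays. Its p was 0.0091, the smallest these arrays can give, and 0.0273 after adjustment over 6 such tests chosen after the values were seen. This p follows from the 3 arrays lying below the 9, a separation seen before the test, and is no further evidence for it. At 1 µM the log2 difference from the 3 lowest doses was 0.02 ± 0.05 (SE, exact permutation p = 0.327, adjusted p = 0.491). The slope of DKK1 over the 24 arrays from 0.001 to 3 µM was -0.02 ± 0.02 log2 per 10-fold dose (95% interval -0.0513 to 0.0114, limma adjusted p = 0.877).

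**Figure D1:**
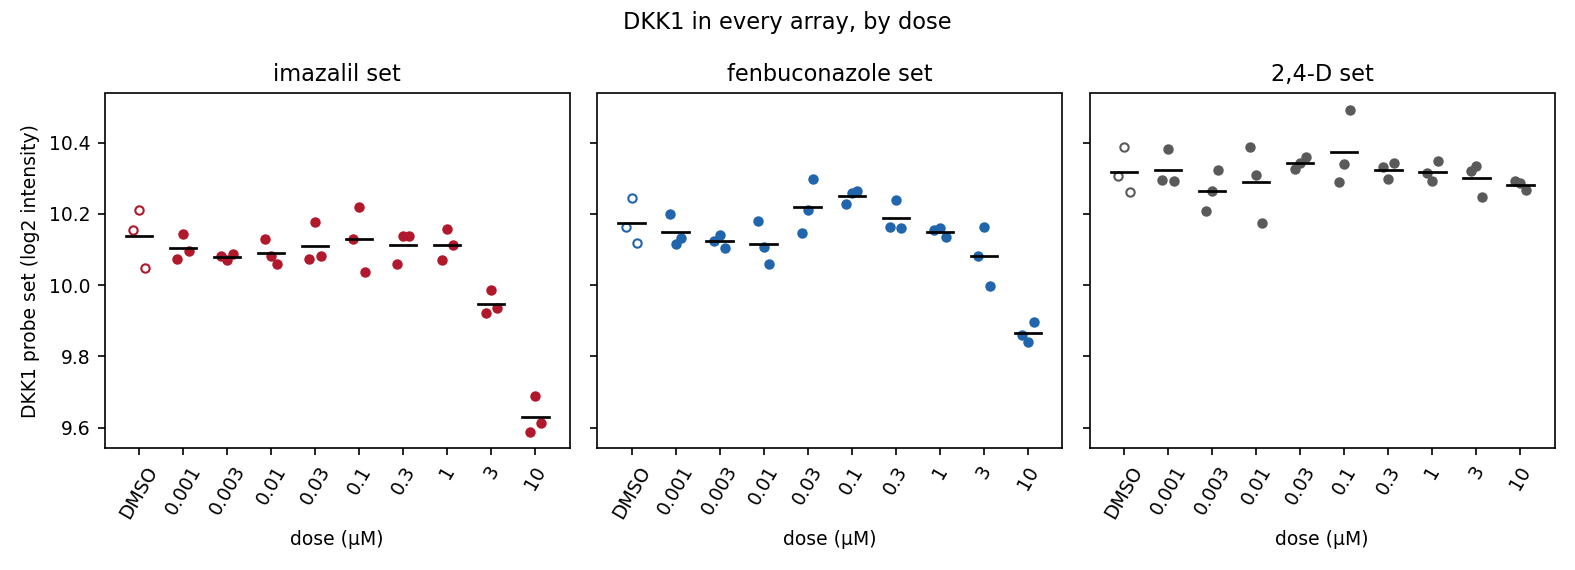
DKK1 probe set in every array, as log2 intensity against dose in µM, for the imazalil, fenbuconazole and 2,4-D sets. Points are single arrays (open for DMSO) and lines are means of 3. The imazalil arrays at 3 µM (9.92 to 9.99) and 10 µM (9.59 to 9.69) and the fenbuconazole arrays at 10 µM (9.84 to 9.90) lie below all arrays of lower doses in their sets. Levels are not comparable between panels, since each set was normalized separately.

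With fenbuconazole DKK1 stood apart at 10 µM only. The arrays were 10.16, 10.24 and 10.12 in DMSO, 10.20, 10.12 and 10.13 at 0.001 µM, 10.12, 10.14 and 10.10 at 0.003 µM, 10.18, 10.11 and 10.06 at 0.01 µM, and 10.15, 10.21 and 10.30 at 0.03 µM. They were 10.23, 10.26 and 10.26 at 0.1 µM, 10.16, 10.24 and 10.16 at 0.3 µM, 10.16, 10.16 and 10.13 at 1 µM, 10.08, 10.16 and 10.00 at 3 µM, and 9.86, 9.84 and 9.90 at 10 µM. The 10 µM arrays lay below all 27 others of the set, and the 3 µM arrays overlapped those of lower doses. DKK1 averaged 9.87 ± 0.03 at 10 µM, against 10.18 ± 0.06 in DMSO (SD, n = 3 each), 0.807 of the DMSO level (95% interval 0.735 to 0.886, a description). Against the 3 lowest doses DKK1 was lower at 10 µM by a log2 difference of -0.26 ± 0.05 (SE, 0.833-fold, 95% interval 0.771 to 0.899), in 3 of 3 arrays. In limma this had an unadjusted p of 4.13e-05 and did not pass over all 40914 probe sets (adjusted p = 0.106). It passed where fewer probe sets were tested or the variance model was changed (adjusted p = 0.0022 to 0.0337 in 3 alternatives, and 0.0022 to 1 over all of them). The exact permutation test gave p = 0.0091, the smallest possible (adjusted p = 0.0273). It too was chosen after the values were seen. Its p follows from the 10 µM arrays lying below all those of the lowest doses. At 3 µM the log2 difference was -0.05 ± 0.05 (exact permutation p = 0.218, adjusted p = 0.436).

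With 2,4-D no difference in DKK1 was detected. Its arrays were 10.31, 10.39 and 10.26 in DMSO, 10.32, 10.34 and 10.25 at 3 µM, and 10.29, 10.29 and 10.27 at 10 µM, and all 30 arrays of the set lay between 10.17 and 10.49. The 10 µM level was 0.975 of that in DMSO. Against the 3 lowest doses the log2 difference at 10 µM was -0.01 ± 0.05 (SE, 95% interval -0.122 to 0.10, limma adjusted p = 1, exact permutation p = 0.709), and at 3 µM 0.01 ± 0.05 (exact permutation p = 0.864).

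The compounds were compared at matched doses after the mean of the DMSO columns of each set was subtracted, which leaves the spread of the DMSO arrays out of the error. At 3 µM the log2 change of DKK1 with imazalil minus that with fenbuconazole was -0.10 ± 0.06 (SE, 95% interval -0.211 to 0.0191, limma adjusted p = 0.956). For imazalil minus 2,4-D it was -0.17 ± 0.06 (95% interval -0.291 to -0.0546, adjusted p = 0.80), and for fenbuconazole minus 2,4-D -0.08 ± 0.06 (95% interval -0.196 to 0.0418, adjusted p = 1). None of these 3 passed in limma, and the intervals leave room for a difference between the azoles. At 10 µM fenbuconazole minus 2,4-D was -0.27 ± 0.06 (95% interval -0.392 to -0.155, 0.827-fold), a comparison added after the values were seen, with a limma adjusted p of 0.0589 that was 0.021 with 1 probe set tested per gene and 0.0193 to 0.98 over all alternatives. The 10 µM differences that involve imazalil are descriptions, -0.20 ± 0.06 from fenbuconazole (95% interval -0.313 to -0.083) and -0.47 ± 0.06 from 2,4-D.

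Among the cytoplasmic and secreted feedback inhibitors, NKD1 (chr16:50548396-50649249) had the largest log2 change after DKK1 at 10 µM imazalil. Its brightest probe set (232203_PM_at) read 8.21, 8.22 and 8.31 at 10 µM imazalil, against 8.46, 8.59 and 8.58 in DMSO, a log2 change of -0.30 ± 0.09 (SE) or 0.815 of DMSO, and the groups did not overlap. The other NKD1 probe set (1553115_PM_at) read 6.17, 6.22 and 6.18 at 10 µM imazalil, against 6.30, 6.38 and 6.46 in DMSO, again without overlap (-0.19 ± 0.15). The brightest probe set read 8.30, 8.35 and 8.47 at 10 µM fenbuconazole, against 8.41, 8.59 and 8.57 in DMSO, and these groups overlapped (-0.15 ± 0.08, limma adjusted p = 0.999). The value of the other probe set with fenbuconazole had the opposite sign, at 0.02 ± 0.13. With 10 µM 2,4-D the brightest NKD1 probe set read 8.60, 8.80 and 8.80, against 8.51, 8.74 and 8.66 in DMSO (0.10 ± 0.08, limma adjusted p = 1). Its log2 difference of imazalil minus 2,4-D at 10 µM was -0.39 ± 0.08, and that of fenbuconazole minus 2,4-D was -0.24 ± 0.07 (95% interval -0.384 to -0.103, limma adjusted p = 0.326).

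AXIN2 (chr17:65528563-65561648) had 4 probe sets, all with negative log2 changes at 10 µM imazalil, from -0.06 to -0.23. The brightest (222696_PM_at) read 8.85, 8.90 and 9.00 at 10 µM imazalil, against 9.10, 8.92 and 9.03 in DMSO, with overlap (-0.10 ± 0.09). That value was -0.03 without the arrays of replicate 1 and -0.15 without DMSO replicate 2. A second (224176_PM_s_at) read 6.21, 6.21 and 6.05 with imazalil, against 6.32, 6.35 and 6.49 in DMSO, without overlap (-0.23 ± 0.09). At 10 µM fenbuconazole it read 6.22, 5.95 and 6.36, against 6.32, 6.43 and 6.50 in DMSO, with overlap (-0.24 ± 0.10, limma unadjusted p = 0.0188, adjusted p = 0.999). The 4 probe sets thus disagreed in size, and with fenbuconazole 1 of them (222695_PM_s_at) was slightly positive at 0.0054.

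NOTUM read 8.93, 8.98 and 9.01 at 10 µM imazalil, against 9.13, 9.08 and 9.07 in DMSO, without overlap (-0.12 ± 0.09). With fenbuconazole NOTUM lay on the other side, at 9.00, 9.04 and 9.19, against 9.08, 8.95 and 9.03 in DMSO, with overlap (0.06 ± 0.10, limma adjusted p = 0.999). The membrane ligases had small values. RNF43 had log2 changes at 10 µM of 0.01 ± 0.08 with imazalil, 0.02 ± 0.09 with fenbuconazole and 0.08 ± 0.09 with 2,4-D, and ZNRF3 had -0.07 ± 0.07, -0.03 ± 0.09 and 0.02 ± 0.06 in the same order of compounds (limma adjusted p = 0.999 for both genes with fenbuconazole and 1 with 2,4-D). The 95% intervals of RNF43 with fenbuconazole ran from 0.894-fold to 1.15-fold and those of ZNRF3 from 0.858-fold to 1.12-fold.

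The receptor LGR5 (chr12:71439129-71586310) had negative values with both azoles, clearest in the brighter of its probe sets. That probe set (213880_PM_at) read 9.09, 9.05 and 9.11 at 10 µM imazalil, against 9.46, 9.24 and 9.23 in DMSO, without overlap (-0.22 ± 0.08, 0.858 of DMSO). With 10 µM fenbuconazole it read 9.29, 9.19 and 9.15, against 9.51, 9.29 and 9.32 in DMSO, again without overlap (-0.16 ± 0.09, limma unadjusted p = 0.0693, adjusted p = 0.999). The nearest arrays there were 9.287 at 10 µM and 9.293 in DMSO. With 2,4-D this probe set read 9.55, 9.38 and 9.32, against 9.56, 9.38 and 9.37 in DMSO (-0.02 ± 0.08). At 3 µM imazalil LGR5 read 9.24, 9.15 and 9.04, and differed from the 3 lowest doses by -0.16 ± 0.07 (95% interval -0.298 to -0.0157, limma unadjusted p = 0.0308, adjusted p = 0.914). The dimmer probe set (210393_PM_at) had log2 changes at 10 µM of -0.25 ± 0.15 with imazalil, -0.07 ± 0.15 with fenbuconazole and -0.07 ± 0.15 with 2,4-D.

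**Figure D2:**
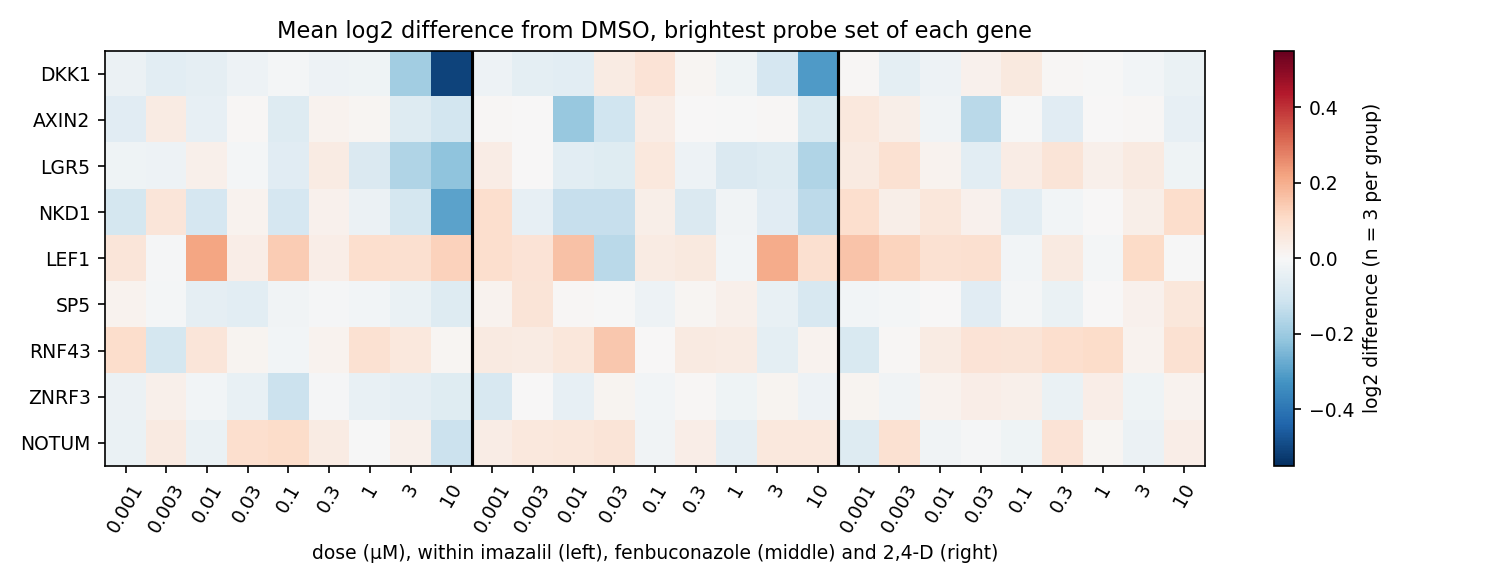
Mean log2 difference from DMSO of the brightest probe set of each of the 9 measured genes (rows), by dose in µM within each compound (columns, n = 3 arrays per group). The darkest blue cells are DKK1 at 10 µM imazalil (-0.51) and 10 µM fenbuconazole (-0.31) and NKD1 at 10 µM imazalil (-0.30). LEF1 shows positive and negative cells at low doses too, and its probe sets lie below the median of all probe sets.

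Of the transcription factors, SP5, with 3 cores in its promoter window, had small values. It read 9.77, 9.66 and 9.68 at 10 µM imazalil, against 9.78, 9.79 and 9.76 in DMSO (-0.07 ± 0.07), with overlap. At 10 µM fenbuconazole it read 9.74, 9.66 and 9.74, against 9.81, 9.82 and 9.79 in DMSO, without overlap (-0.09 ± 0.07, 95% interval -0.243 to 0.0623, limma adjusted p = 0.999). At 10 µM 2,4-D SP5 read 9.97, 10.02 and 10.00, against 9.93, 9.94 and 9.93 in DMSO, wholly above it (0.06 ± 0.06, limma adjusted p = 1). LEF1, with 3 dim probe sets of 2.05 to 3.01 in the DMSO arrays, had log2 changes of -0.11 to 0.19 at 10 µM imazalil, 0.05 to 0.17 at 10 µM fenbuconazole and -0.00083 to 0.18 at 10 µM 2,4-D.

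**Figure D3:**
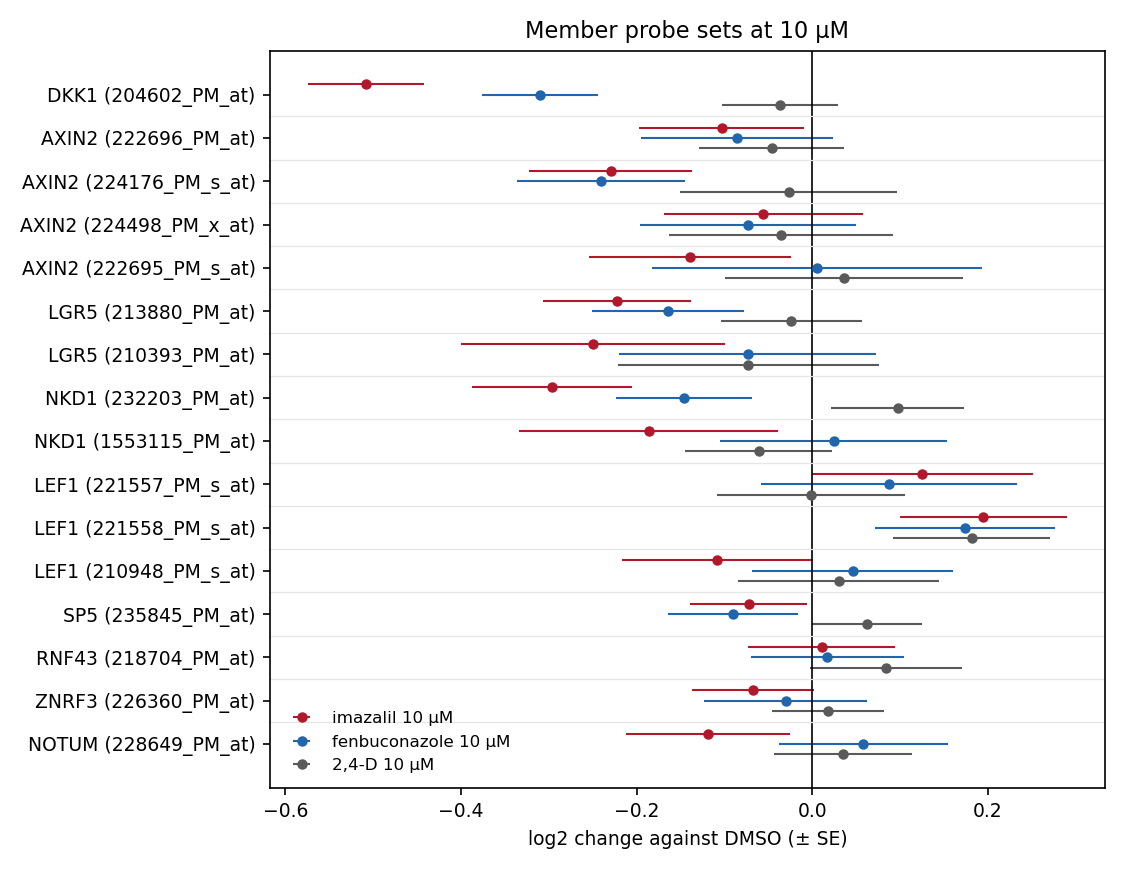
Log2 change at 10 µM against DMSO with its standard error (limma, n = 3 arrays per group) for the 16 member probe sets and the 3 compounds. DKK1 stands lowest with imazalil (-0.51) and with fenbuconazole (-0.31) and at -0.04 with 2,4-D, and the remaining probe sets lie between -0.30 and 0.19.

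Counted together, 1 of 16 member probe sets, that of DKK1, passed the threshold of an adjusted p under 0.05 at 10 µM imazalil against DMSO, where 0.0464% of all 40914 probe sets did (19 of them). This contrast was used in choosing the genes and the count describes it only. The count was 0 when every array of replicate 1, 2 or 3 was left out and when only the 10 µM and DMSO arrays were fitted. At 10 µM fenbuconazole limma called 0 of 16 members, where 0.00978% of all probe sets passed. There 2 members had an unadjusted p under 0.05 (DKK1, as a description, and 1 probe set of AXIN2), against 4.40% of all probe sets. With 2,4-D limma called 0, with 0 at an unadjusted p under 0.05 (0% and 4.07% of all probe sets). With imazalil 4 members had an unadjusted p under 0.05, also a description, against 5.44% of all probe sets. At the 8 lower doses limma called 0 members with any compound, where at most 0.00244% of all probe sets passed. At an unadjusted p under 0.05 there were 0 to 2 members per dose, and 2.46% to 5.87% of all probe sets.

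The direction of the member values was mostly downward with imazalil, and with fenbuconazole mainly against the 3 lowest doses. The list was chosen by 10 µM imazalil against DMSO, so the imazalil counts below are descriptions. At 10 µM, 13 of 16 probe sets were below DMSO with imazalil (median log2 change -0.11), 9 with fenbuconazole (-0.05) and 8 with 2,4-D (0.01), while over all probe sets 50.7%, 50.6% and 50.1% were below, with medians within 0.0021 of 0. By gene, taking the brightest probe set, 7 of 9 genes were below DMSO with imazalil, 6 with fenbuconazole and 4 with 2,4-D. Over all 19774 genes 51.4%, 50.3% and 49.7% were below in the same order. Against the 3 lowest doses, 14 of 16 probe sets were lower at 10 µM imazalil (median log2 difference -0.15). With fenbuconazole 13 were lower (-0.09) and with 2,4-D 9 (-0.01), while over all probe sets 49.1%, 49% and 48.1% were lower. By gene, 8, 7 and 4 of 9 were lower in that contrast, against 49.4%, 48.4% and 45.5% of all genes. All 3 arrays at 10 µM lay below all 3 DMSO arrays for 7 of 16 probe sets with imazalil (those of DKK1 and NOTUM, 1 of LGR5, and 2 each of AXIN2 and NKD1), where 6.29% of all probe sets did. They did so for 3 with fenbuconazole (DKK1, LGR5 and SP5), where 4.27% did, and for 0 with 2,4-D, where 3.40% did. The separation was very narrow for AXIN2 222695_PM_s_at with imazalil, where the nearest arrays were 5.4648 and 5.4654 in DMSO. It was narrow too for LGR5 with fenbuconazole, at 9.287 and 9.293 in DMSO. With 2,4-D 2 member probe sets, of SP5 and LEF1, lay wholly above DMSO, where 3.63% did. Probe sets of 1 gene share its transcripts and the compounds share the DMSO arrays, so these counts are not over independent values.

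Tests over the whole dose range called few members. In the F test over doses 1 member passed with imazalil (DKK1, a description), 0 with fenbuconazole and 0 with 2,4-D, where 0.0244%, 0.00733% and 0% of all probe sets passed. At an unadjusted p under 0.05 there were 2, 1 and 0 members in the same order, and 4.44%, 3.47% and 5.13% of all probe sets. Slopes over the 27 treated arrays passed for 0 members with each compound in limma, where 0.0318%, 0.00978% and 0% of all probe sets passed with imazalil, fenbuconazole and 2,4-D. At an unadjusted p under 0.05 there were 5, 3 and 0 members in the same order, against 6.44%, 6.07% and 4.82% of all probe sets. The imazalil counts of the F test and of these slopes use the 10 µM arrays by which the list was chosen, and are descriptions. The DKK1 slope was -0.08 ± 0.02 log2 per 10-fold dose with imazalil, a description, -0.04 ± 0.02 with fenbuconazole (limma adjusted p = 0.749) and -0.0007 ± 0.01 with 2,4-D (adjusted p = 1). Without the 10 µM arrays 0 members passed with each compound, where 0.00489%, 0% and 0% of all probe sets did. At an unadjusted p under 0.05 there were 0, 2 and 0 members, and 6.28%, 7.87% and 6.08% of all probe sets. Against the 3 lowest doses limma called 0 members at 3 µM imazalil, 10 µM fenbuconazole and 10 µM 2,4-D, where 0.00244%, 0.0318% and 0% of all probe sets passed. At an unadjusted p under 0.05 there were 3, 3 and 0 members, and 5.45%, 5.23% and 4.28% of all probe sets. Between compounds at 3 µM it called 0 members in the 3 pairs, where at most 0.00489% of all probe sets passed. At an unadjusted p under 0.05 there was 1 member for imazalil minus fenbuconazole (5.16% of all probe sets), 2 for imazalil minus 2,4-D (5.52%) and 0 for fenbuconazole minus 2,4-D (3.68%). At 10 µM fenbuconazole minus 2,4-D called 0 members, where 0.0440% of all probe sets passed, with 3 members and 6.47% of all probe sets at an unadjusted p under 0.05. As descriptions, imazalil minus 2,4-D called 2, DKK1 and NKD1 (0.120%), and imazalil minus fenbuconazole 0 (0.0171%).

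The rest of the pathway was examined in 6 lists, with the brightest probe set of each gene. In all 6 lists and with each compound, limma called 0 genes in either direction at 10 µM against DMSO, by slope and against the 3 lowest doses. At 10 µM against DMSO 0.0464%, 0.00978% and 0% of all probe sets passed with imazalil, fenbuconazole and 2,4-D. By slope 0.0318%, 0.00978% and 0% passed in the same order, and at 10 µM against the 3 lowest doses 0.122%, 0.0318% and 0%. At an unadjusted p under 0.05 there were 0 to 2 genes per list at 10 µM against DMSO, and 5.44%, 4.40% and 4.07% of all probe sets. Of the 36 extreme values named from these lists, 29 had the same sign against the 3 lowest doses and 32 were smaller in size there than against DMSO. The values were picked as extremes against DMSO, which favours smaller ones elsewhere, and shared 10 µM arrays favour the same sign. No conclusion is drawn from these counts. Of 19 measured Wnt ligands of 21 listed, 6 lay above the median of all probe sets, and the lowest and highest log2 changes at 10 µM were those of WNT6 (-0.32) and WNT10A (0.37) with imazalil, WNT9A (-0.18) and WNT11 (0.29) with fenbuconazole, and WNT7A (-0.18) and WNT8B (0.27) with 2,4-D. Of these only WNT6 and WNT8B lay above that median. The median log2 change of the ligands was -0.04 with imazalil, 0.12 with fenbuconazole and 0.04 with 2,4-D.

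Among 18 receptors and R-spondin genes, the R-spondin receptor LGR4 was highest with imazalil (0.30 ± 0.15) and with 2,4-D (0.23 ± 0.12), while its log2 difference from the 3 lowest doses was 0.08 ± 0.12 and 0.01 ± 0.09 with these compounds. The lowest were the Frizzled receptors FZD8 with imazalil (-0.25) and FZD1 with fenbuconazole (-0.22) and the ligand RSPO1 with 2,4-D (-0.28), and LGR6 was highest with fenbuconazole (0.15). Of these FZD8, RSPO1 and LGR6 lay below the median of all probe sets. Against the 3 lowest doses FZD8 was -0.05 with imazalil and RSPO1 -0.02 with 2,4-D. Of 14 secreted and surface inhibitors other than the members, 11 were below DMSO with imazalil (median -0.07), 8 with fenbuconazole (-0.01) and 8 with 2,4-D (-0.06). WIF1, which binds Wnt ligands outside the cell, was lowest with imazalil (-0.35 ± 0.10) and 2,4-D (-0.25 ± 0.09) but was a dim probe set, and its log2 difference from the 3 lowest doses was -0.08 ± 0.08 with imazalil and 0.04 ± 0.07 with 2,4-D. APCDD1, a membrane inhibitor, was the lowest with fenbuconazole (-0.30). The highest inhibitors were SFRP2 with imazalil (0.08), FRZB with fenbuconazole (0.12) and KREMEN2, a receptor of DKK1, with 2,4-D (0.17). The probe sets of SFRP2 and FRZB were dim as well.

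In the destruction complex and Dishevelled list (16 genes), APC, the scaffold lost in many colon tumours, was highest with imazalil (0.29 ± 0.09) and the kinase GSK3A lowest (-0.15). AXIN1 was highest (0.17) and the ubiquitin ligase subunit BTRC lowest (-0.18) with fenbuconazole, and AMER1 highest (0.17) and APC2 lowest (-0.22) with 2,4-D. Of 13 TCF factors and cofactors, the extremes were PYGO1 (0.28) and BCL9 (-0.18), both coactivators of beta-catenin, with imazalil, the inhibitor CTNNBIP1 (0.09) and the corepressor TLE4 (-0.29) with fenbuconazole, and TCF7L1 (0.22) and TLE2 (-0.12) with 2,4-D. The probe set of TLE2 lay below the median of all probe sets. Of 18 measured further beta-catenin targets, CCND1, the gene of cyclin D1, was highest with imazalil (0.29 ± 0.11) and EPHB3 lowest (-0.19). BIRC5, the gene of survivin, was lowest with fenbuconazole (-0.30 ± 0.10, limma adjusted p = 0.999) and MYC highest (0.09), and SOX9 (0.11) and TBX3 (-0.09) were the extremes with 2,4-D. The median of these targets was 0.03 with imazalil, -0.02 with fenbuconazole and 0.01 with 2,4-D.

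**Figure D4:**
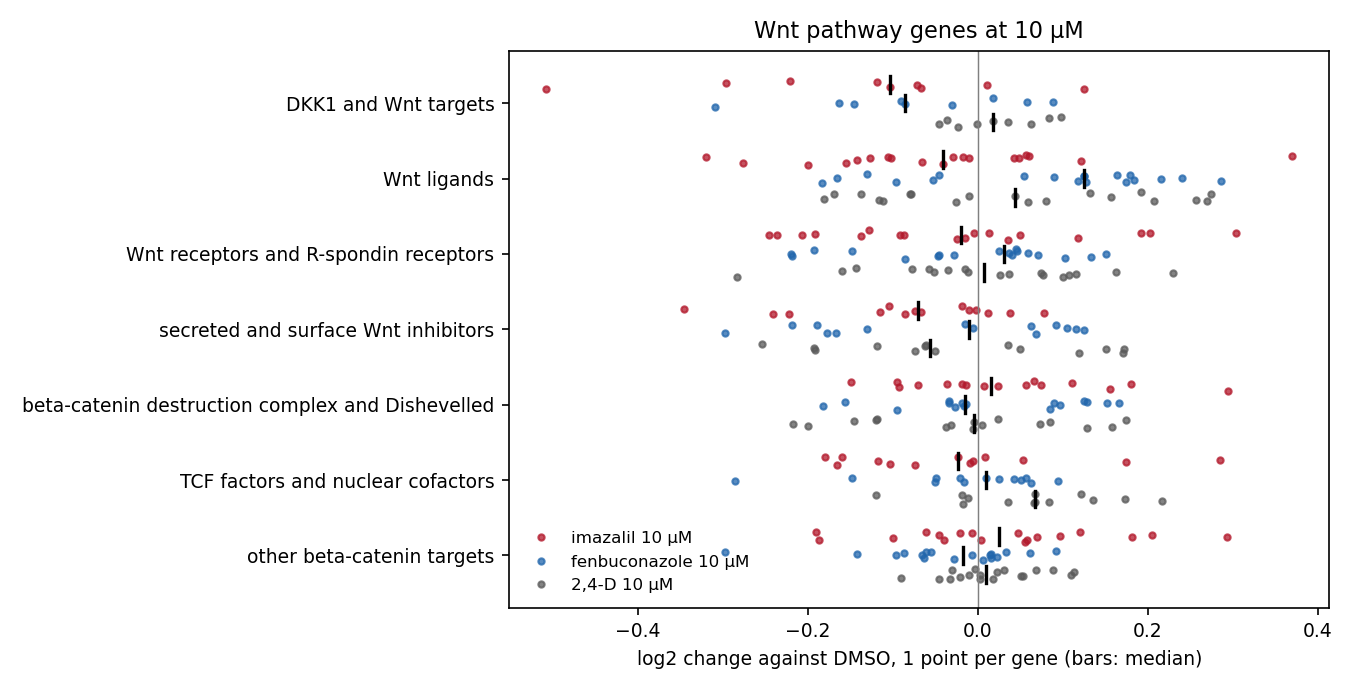
Log2 change at 10 µM against DMSO of the 9 measured members and of 6 further lists of Wnt pathway genes, 1 point per gene (brightest probe set) and compound, with black bars at list medians. The member medians are -0.10 with imazalil, -0.09 with fenbuconazole and 0.02 with 2,4-D, and the medians of the other lists lie between -0.07 and 0.12.

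The genes whose course was most like that of DKK1 were sought among 12478 genes above the median, by Pearson correlation over the 27 compound and dose means after subtraction of DMSO. These means share the DMSO arrays within a set, and the values are a description. CCN2, a secreted matricellular protein, was highest (r = 0.907), followed by SLC2A3, a glucose transporter (0.901), TXNIP, an inhibitor of thioredoxin (0.886), KRTAP3-1, a keratin-associated protein (0.854), and APOM, an apolipoprotein (0.851). The most opposite were CYP1A1, a cytochrome P450 of the aryl hydrocarbon receptor response (-0.894), ALAS1, the first enzyme of haem synthesis (-0.888), and HAMP, the iron hormone hepcidin (-0.853). Without the 10 µM means (24 left), r was 0.751 for CCN2, 0.622 for SLC2A3 and -0.688 for CYP1A1, and between 0.39 and 0.55 in size for the other 5. Beside the DKK1 changes of -0.51 at 10 µM imazalil and -0.31 at 10 µM fenbuconazole, CCN2 had -0.40 and -0.17, and CYP1A1 3.01 and 1.66. Among the members LGR5 was most like DKK1 (r = 0.743), then NKD1 (0.644), SP5 (0.444), ZNRF3 (0.347), AXIN2 (0.302), NOTUM (0.255), RNF43 (0.189) and LEF1 (-0.299). Without the 10 µM means the order differed, with LGR5 at 0.494, ZNRF3 at 0.256, RNF43 at 0.199, NKD1 at 0.191, AXIN2 at 0.083, SP5 at 0.0088, NOTUM at -0.203 and LEF1 at -0.421.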

How the data were processed

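Total RNA of HepG2 cells was hybridized to 3' expression arrays. The authors deposited log2 intensities per probe set, normalized by RMA in 3 compound sets of 30 columns, in which the same 3 DMSO arrays recur (90 columns, 84 arrays). RMA and Partek are named in the submitters' processing notes, and versions and settings are not given in the sources used here. Because sets were normalized separately, changes were tested within a set, and differences between compounds after subtraction of the DMSO mean of each set. Gene names came from the platform annotation, and symbols and positions from RefSeq (GRCh38.p14). Of 54715 probe sets, 102 were controls, 864 had several symbols and 12835 had none. No dim probe set was left out.

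Contrasts were fitted by limma 3.58.1 in R 4.3.3 (lmFit and eBayes, 1 mean per dose over the 30 columns of a set, two-sided), with Benjamini-Hochberg adjustment over all 40914 probe sets with 1 symbol and a threshold of 0.05. Slopes were per 10-fold dose over treated arrays. The code was tested on simulated data. Permutation tests used scipy 1.17.1. The members, the pathway lists, the tests and the naming rule were chosen with earlier results of these data known. By the rule, all members were named, with the genes of highest and lowest change of each list, those past the threshold, and the 5 most and 3 least like DKK1. Alternatives were a replicate block, joint quantile normalization, a trended robust variance, fewer or more probe sets, the array spread as a covariate, the compared groups alone, and leaving out arrays.

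The labels number the arrays of a group 1 to 3, and repeat the number as a plate code without explaining it. Deviations of same-numbered arrays correlated at 0.045, 0.051 and 0.073 on average in the imazalil, fenbuconazole and 2,4-D sets, with lowest values of -0.431, -0.406 and -0.288. Between the 10 µM and DMSO arrays, the 3 same-numbered pairs correlated at 0.48, 0.367 and 0.198 in the 2,4-D set. They were 0.462, 0.249 and 0.07 in the fenbuconazole set and -0.167, 0.126 and 0.18 in the imazalil set.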

Additional observations from a re-analysis of the deposited data

How the results depend on the processing

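Of 543 recomputed values other than counts, 23 had another sign than the value reported, 6 of them with 10 µM imazalil. DKK1 kept its direction at 10 µM in every one, from -0.553 to -0.472 with imazalil and from -0.353 to -0.263 with fenbuconazole, and at 3 µM imazalil against the lowest doses from -0.159 to -0.128 (adjusted p 0.484 to 1). For 10 µM fenbuconazole against the lowest doses (-0.264), the adjusted p was 0.0022 with a trended robust variance, 0.0216 without dim probe sets and 0.0337 with 1 probe set per gene, and 0.0022 to 1 over all alternatives. For fenbuconazole minus 2,4-D at 10 µM (-0.273), it was 0.0193 without dim probe sets and 0.021 with 1 probe set per gene, and 0.0193 to 0.98 over all. The settings without dim probe sets and with 1 probe set per gene test fewer probe sets, and the cause of the change under the robust variance was not tested. The number of members called at 10 µM became 1 with fenbuconazole under the robust variance (F test also 1) and 0 with imazalil when only the compared groups were fitted. Leaving out arrays gave 0 to 1 for imazalil at 10 µM and 0 for its F test. The replicate block left the imazalil count at 1 and the fenbuconazole and 2,4-D counts at 0, gave DKK1 adjusted p-values of 0.781 at 3 µM imazalil and 0.102 at 10 µM fenbuconazole against the lowest doses and 0.0606 for fenbuconazole minus 2,4-D, and changed no call.

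The sign changes concerned log2 changes of members other than DKK1 at 10 µM that passed no test or were given without one, and their cause was not tested. When single arrays or replicate numbers were left out, values with 2,4-D ran from -0.11 to 0.0493 for AXIN2, -0.0898 to 0.0387 for LGR5, -0.0016 to 0.0361 for ZNRF3 and -0.165 to 0.116 for LEF1. With imazalil they ran from -0.0137 to 0.273 for LEF1 (negative without DMSO replicate 1), -0.0405 to 0.0519 for RNF43, -0.15 to -0.029 for AXIN2, -0.148 to -0.0766 for NOTUM and -0.275 to -0.147 for LGR5. RNF43 with imazalil was also -0.011 after joint quantile normalization and -0.001 with the array spread as a covariate. With fenbuconazole the values with arrays left out ran from -0.0331 to 0.211 for LEF1, -0.01997 to 0.0387 for RNF43 and -0.0658 to 0.0283 for ZNRF3. LEF1 with 2,4-D was 0.0028 after joint quantile normalization, and ZNRF3 with fenbuconazole was 0.0087 with the array spread as a covariate. LEF1 was dim, which with 3 arrays per group limits what its values can show.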
